A study of Rattus norvegicus with 10 samples.

Results

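The endocannabinoid receptors and enzymes described here are 8 genes, chosen by name: the cannabinoid receptor genes Cnr1 and Cnr2, the synthesis genes Dagla, Daglb and Napepld, and the breakdown genes Mgll, Abhd6 and Faah. Each had exactly 1 row among the 30560 genes of the count table, and all 8 were among the 15186 genes with enough counts to be tested. Their RNA was measured in whole L6 dorsal root ganglia, the paired clusters of sensory neuron cell bodies that flank the spinal cord, taken from Sprague Dawley rats of 7 to 8 weeks. Every rat carried a lumbar intrathecal catheter, was given meloxicam, an anti-inflammatory analgesic, after surgery and again at dosing, and was dosed 5 days after surgery. One group received phosphate-buffered saline (PBS, 5 samples) and the other 0.75 mg of SCN9A_2544 (5 samples), a divalent small interfering RNA against the sodium channel gene Scn9a. All samples carry a timepoint of 14 days, with no statement of where the count of days starts, and no group given a non-targeting RNA was analysed here.

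Endocannabinoids are lipid messengers that cells make on demand from membrane phospholipids. The 2 best known are 2-arachidonoylglycerol, which diacylglycerol lipases release, and anandamide, for which N-acyl phosphatidylethanolamine phospholipase D is the classical enzyme. Both act on the G protein-coupled receptors CB1, found mainly on neurons, and CB2, found mainly on immune cells. In sensory ganglia CB1 dampens the release of transmitter from nociceptor endings, and blocking the enzymes that destroy the messengers relieves pain in rodents.

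The libraries held 11832376 to 15420006 estimated counts. Scn9a itself lay at 132 to 257 CPM in PBS libraries and at 44.6 to 103 CPM in SCN9A_2544 libraries, so the groups did not overlap for the target. CPM are counts scaled to a common library size. All 10 markers of sensory ganglia that were looked for were tested, led by the intermediate filament gene Prph at a mean of 2025 CPM. The mean of 20 pan-neuronal genes spanned 7.40 to 8.52 log2 CPM with PBS and 7.21 to 8.41 with SCN9A_2544. That of 18 Schwann cell and myelin genes spanned 7.44 to 9.66 and 7.60 to 9.84, and the library poorest in neuronal RNA, SCN9A_2544 replicate 3, held the highest Schwann cell value. Of 12 cell type lists, satellite glia had the smallest p, at 6.54 ± 0.15 log2 CPM with PBS and 6.85 ± 0.09 with SCN9A_2544 (± SD, n = 5 each), with no overlap between libraries (two-sided exact permutation p = 0.00794, adjusted over the 12 lists 0.0952). Macrophage markers were at 4.04 ± 0.21 and 4.50 ± 0.39 log2 CPM (exact permutation p = 0.0397, adjusted 0.222), and the other 10 lists had adjusted p-values from 0.222 to 0.937.

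The first question was whether any gene of the system differed between SCN9A_2544 and PBS ganglia. By edgeR's quasi-likelihood test 0 of the 8 passed an adjusted p of 0.05, as did 0% of all genes tested. An unadjusted p under 0.05 was reached by 0 of the 8, against 4.23% of all genes (2.5% higher and 1.73% lower). DESeq2 called 0 of the 8, against 0.079% of all genes, and limma voom with library weights called 0, against 0.00659% of all genes. The target Scn9a was itself not called by edgeR (log2 fold change -1.03, SE 0.25, unadjusted p = 0.00134, adjusted p = 0.963). DESeq2 did not call it either (adjusted p = 0.0707). A gene that did not pass in these tests was therefore not shown to be unchanged. Voom gave an unadjusted p under 0.05 to 2 of the 8, Mgll (-0.66, unadjusted p = 0.00632, adjusted p = 0.167) and Dagla (0.46, unadjusted p = 0.0126, adjusted p = 0.177), and to 20.9% of all genes. Libraries of the groups overlapped for all 8 members, while 0.665% of all genes did not overlap. Of the 8 log2 fold changes, 6 lay above 0 and 2 below, with a median of 0.14, beside 53.4% above 0 and a median of 0.02 over all genes.

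**Figure D1:**
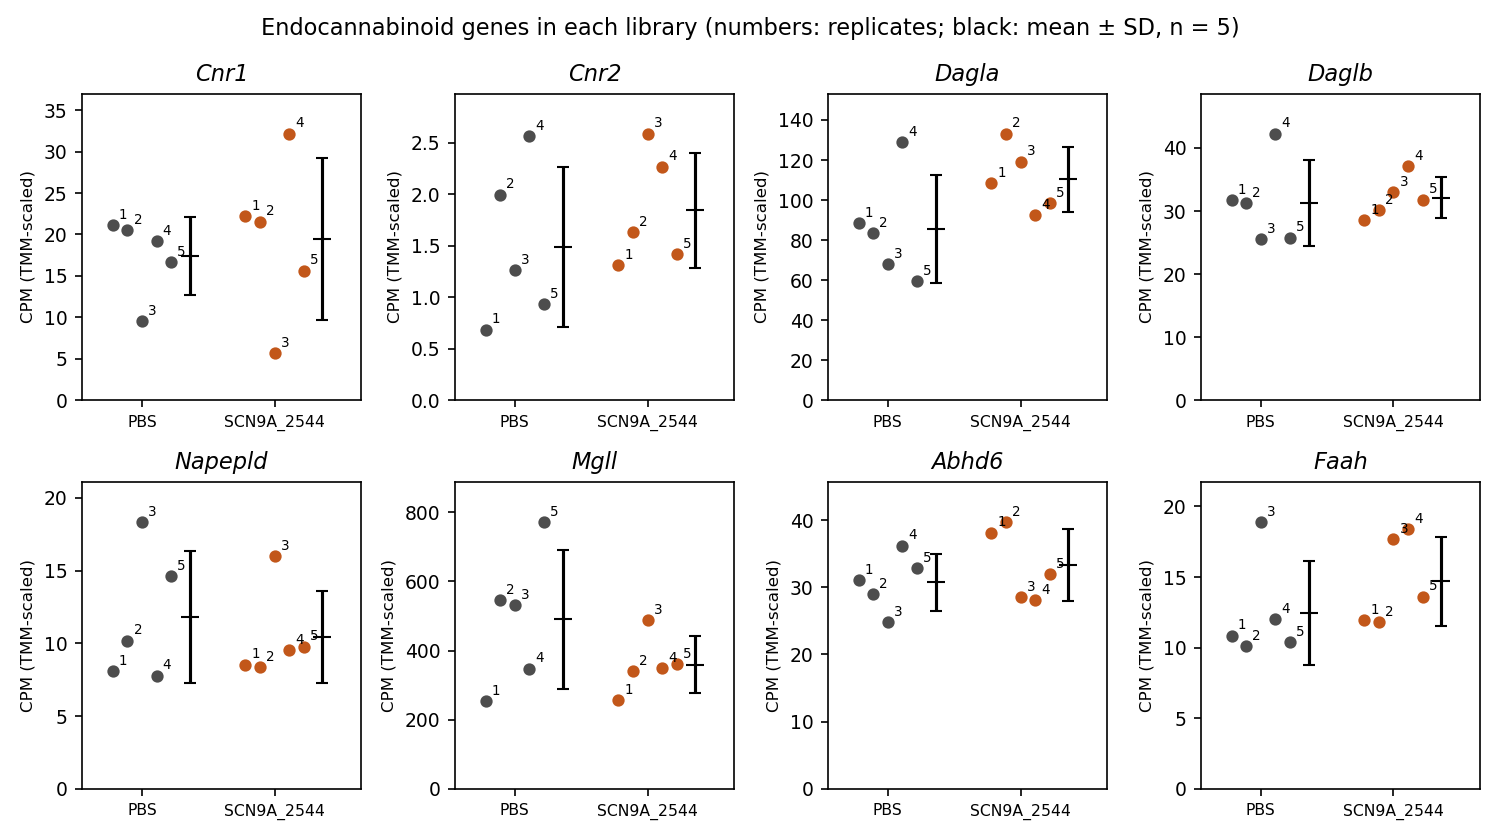
CPM of the 8 genes in each library, with PBS in grey, SCN9A_2544 in orange, replicate numbers beside the points, and the mean ± SD in black (n = 5). The groups overlap in every panel, and replicate 3 of both groups is the lowest point of its group for Cnr1 and the highest for Napepld.

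Cnr1 (ENSRNOG00000008223) encodes the receptor CB1. In PBS replicates 1 to 5 it stood at 21.2, 20.6, 9.55, 19.2 and 16.6 CPM. In SCN9A_2544 replicates 1 to 5 the values were 22.2, 21.6, 5.65, 32.2 and 15.6 CPM. Replicate 3 was the lowest library of each group, and the treated group held both the lowest and the highest value of the series, a 5.69-fold range. The group means were 17.4 ± 4.73 and 19.5 ± 9.74 CPM (± SD, n = 5 each). The log2 fold change by edgeR was 0.16 (SE 0.37, 95% interval -0.65 to 0.97, adjusted p = 0.982). Its direction rested on SCN9A_2544 replicate 4, without which it was -0.10, and it was -0.05 once the pan-neuronal mean was in the model.

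Cnr2 (ENSRNOG00000009260), which encodes CB2, was close to the limit of detection, with 10 to 38 estimated counts per library. Its level was 1.49 ± 0.78 CPM with PBS and 1.84 ± 0.56 CPM with SCN9A_2544 (± SD, n = 5 each). The libraries ran from 0.69 to 2.56 CPM and from 1.31 to 2.59 CPM, so the treated range lay mostly inside that of PBS. The log2 fold change was 0.32 with a wide interval, -0.50 to 1.14 (edgeR, adjusted p = 0.975). It ran from 0.13 without PBS replicate 1 to 0.59 without PBS replicate 4 when 1 library was left out. Of the 18 macrophage markers tested, 16 lay above 0 in the same comparison, their summed level running from 499 to 749 CPM in PBS and from 574 to 1308 CPM in treated libraries, with no marker at 0 in every library. With the macrophage mean in the model, a choice made after seeing the data, the log2 fold change of Cnr2 was -0.27 (SE 0.42). That mean was itself higher in the treated group, at 4.50 against 4.04 log2 CPM. Its part and that of the treatment therefore cannot be fully told apart. Among lymphocyte markers 5 of 15 had enough counts to be tested, and their summed level was 8.08 to 45.7 CPM in PBS and 14.3 to 29.6 CPM in treated libraries. The part of either cell type in the Cnr2 values was not tested beyond that covariate.

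Dagla (ENSRNOG00000027264) encodes diacylglycerol lipase alpha, the main source of 2-arachidonoylglycerol at synapses. The PBS libraries stood at 88.4, 83.4, 67.9, 129 and 59.5 CPM in replicate order. The SCN9A_2544 libraries stood at 108, 133, 119, 92.4 and 98.4 CPM. All 5 treated libraries lay above 4 of the 5 PBS libraries, and only PBS replicate 4 reached into the treated range. Dagla had the smallest p of the 8 genes, with means of 85.6 ± 26.9 and 110 ± 16.4 CPM (± SD over 5 libraries) and a log2 fold change of 0.37 (SE 0.20, 95% interval -0.07 to 0.81). It did not pass (edgeR, unadjusted p = 0.0955, adjusted p = 0.963), and it ranked 1332 of 15186 genes by p. The log2 fold change of Dagla was 0.56 without PBS replicate 4 (edgeR, unadjusted p = 0.00573, adjusted p = 0.384), 0.24 without PBS replicate 5 (unadjusted p = 0.243) and 0.09 without the 3 ganglia poorest in neuronal RNA (PBS replicates 3 and 5 and SCN9A_2544 replicate 3), a choice made after seeing the data. Of the 11 satellite glia markers tested, 9 had log2 fold changes above 0 and 3 an unadjusted p under 0.05 by edgeR. For all genes these shares were 53.4% and 4.23%. The summed level of the list was 3724 to 5471 CPM in PBS and 5092 to 6029 CPM in treated libraries. Most of that sum was Apoe, at a mean of 3850 CPM over all libraries. With the satellite glia mean in the model, chosen after seeing the data, the log2 fold change of Dagla was -0.25 (SE 0.30), but this mean separates the groups by itself, so its part and that of the treatment cannot be told apart.

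Daglb (ENSRNOG00000001079), encoding the second diacylglycerol lipase, was among the steadiest members. The means were 31.3 ± 6.80 CPM with PBS and 32.1 ± 3.26 CPM with SCN9A_2544 (± SD, n = 5 each). The log2 fold change was 0.04 (95% interval -0.30 to 0.38). The 2 paralogs thus had values of 0.37 and 0.04, and the difference between them was not tested.

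Napepld (ENSRNOG00000011363) encodes the phospholipase D that yields anandamide. Its PBS values were 8.10, 10.2, 18.3, 7.77 and 14.6 CPM in replicate order. In the SCN9A_2544 group they were 8.53, 8.37, 16.0, 9.51 and 9.77 CPM. The highest were PBS replicates 3 and 5 and SCN9A_2544 replicate 3, the same 3 libraries that had the lowest pan-neuronal means. Group means were 11.8 ± 4.56 and 10.4 ± 3.17 CPM (± SD, n = 5 each). The log2 fold change was -0.18 (95% interval -0.78 to 0.43, edgeR adjusted p = 0.976). Without PBS replicate 3 it was 0.04.

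Mgll (ENSRNOG00000014508) encodes monoacylglycerol lipase, which ends most 2-arachidonoylglycerol signalling. It had 3527 to 11567 estimated counts per library, so counting error was small beside the spread between ganglia. The PBS libraries stood at 254, 547, 531, 348 and 772 CPM in replicate order, a spread from PBS replicate 1 to PBS replicate 5 of 3.04-fold. The SCN9A_2544 libraries stood at 257, 340, 488, 350 and 360 CPM, all inside the PBS range. The means were 490.4 ± 200.3 and 359 ± 82.8 CPM (± SD, n = 5 each), and the log2 fold change of -0.45 (95% interval -1.06 to 0.16) was the lowest of the 8. It did not pass (edgeR, unadjusted p = 0.132, adjusted p = 0.963). Leaving out 1 library at a time gave -0.63 without SCN9A_2544 replicate 3, -0.61 without PBS replicate 1 (unadjusted p = 0.0279, adjusted p = 0.927) and -0.25 without PBS replicate 5. Once the pan-neuronal mean was in the model it was -0.33 (95% interval -0.73 to 0.06, adjusted p = 0.559).

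Abhd6 and Faah complete the breakdown side. Abhd6 (ENSRNOG00000008167), encoding a membrane-bound lipase that removes a smaller share of 2-arachidonoylglycerol, averaged 30.8 ± 4.25 CPM with PBS and 33.3 ± 5.38 CPM with SCN9A_2544 (± SD, n = 5 each). Its log2 fold change was 0.11 (95% interval -0.21 to 0.44), and its 1.60-fold range over the 10 libraries was the narrowest of the 8. Faah (ENSRNOG00000045949) encodes fatty acid amide hydrolase, the anandamide-degrading enzyme. It stood at 10.8, 10.1, 18.9, 12.0 and 10.4 CPM in PBS and at 12.0, 11.8, 17.7, 18.4 and 13.6 CPM in SCN9A_2544 libraries, in replicate order. PBS replicate 3 was far above the rest of its group, which lay below or within the treated range. The log2 fold change of Faah was 0.24 (95% interval -0.23 to 0.71, adjusted p = 0.963) and 0.44 without PBS replicate 3 (edgeR, unadjusted p = 0.0336, adjusted p = 1.00). Its value was 0.13 without SCN9A_2544 replicate 3, 0.14 without SCN9A_2544 replicate 4 and 0.16 without PBS replicate 5. With the macrophage mean in the model, added after seeing the data, Faah was at -0.06 (SE 0.27). As for Cnr2, that mean was itself higher in the treated group.

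**Figure D2:**
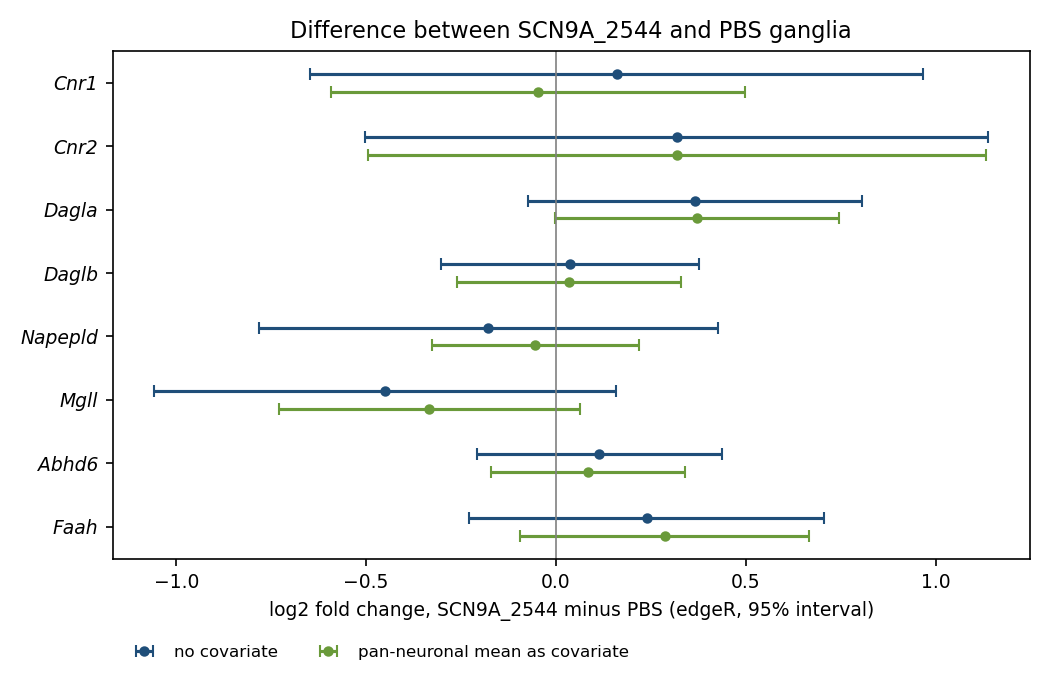
Log2 fold change of each gene between SCN9A_2544 and PBS ganglia by edgeR, with 95% intervals, without a covariate (blue) and with the pan-neuronal mean in the model (green). All intervals include 0, and those of all 8 genes are narrower with the covariate, by little for Cnr2.

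The intervals give what this comparison could and could not see. For Daglb and Abhd6 they span folds of 0.811 to 1.30 and 0.865 to 1.35, and for Cnr1 and Cnr2 folds of 0.638 to 1.95 and 0.706 to 2.20. With the pan-neuronal mean in the model, 0 of the 8 genes passed and 0 had an unadjusted p under 0.05, beside 0.00659% and 9.48% of all genes. Scn9a did pass in that fit (log2 fold change -1.14, edgeR adjusted p = 0.0219). Of the 8 genes Dagla came nearest, at 0.37 (95% interval -0.003 to 0.74, unadjusted p = 0.0518, adjusted p = 0.525).

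The second question was how the 8 genes vary with the neuronal RNA of the ganglion, whatever the treatment. A slope on the pan-neuronal mean was fitted by edgeR within the groups, in log2 units of the gene for each log2 unit of the mean, so that a gene expressed by neurons alone would have a slope near 1. Cnr1 rose with neuronal RNA, Napepld and Mgll fell, and the other 5 did not pass. That is 3 of 8 members past an adjusted p of 0.05, beside 42.7% of all genes (22.1% rising and 20.6% falling), a share near the background. In whole ganglia, fewer neurons and less RNA per neuron cannot be told apart, nor can less neuronal and more Schwann cell RNA.

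The slope of Cnr1 was 1.18 (SE 0.31, 95% interval 0.51 to 1.86, edgeR adjusted p = 0.00929). That value rested on a few ganglia. Without SCN9A_2544 replicate 3 it was 0.66 (adjusted p = 0.180), and leaving out the 3 ganglia poorest in neuronal RNA (PBS replicates 3 and 5 and SCN9A_2544 replicate 3) gave -0.63 (SE 0.76). Among the 7 ganglia rich in neuronal RNA, Cnr1 ran from 15.6 to 32.2 CPM with no such order: SCN9A_2544 replicates 4 and 5, close in pan-neuronal mean at 8.22 and 8.34 log2 CPM, were the highest and the lowest.

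The slope of Napepld was -0.90 (SE 0.13, 95% interval -1.19 to -0.62, edgeR adjusted p = 0.000262), and that of Mgll was -0.76 (SE 0.20, 95% interval -1.20 to -0.32, adjusted p = 0.0100). On the Schwann cell and myelin mean, fitted in its place after the data were seen, Mgll rose by 0.51 per log2 unit (adjusted p = 0.000911) and Napepld by 0.49 (adjusted p = 0.00125), beside 19.2% of all genes rising on that mean. Cnr1 fell by 0.54 per log2 unit (adjusted p = 0.0477), beside 20.4% falling. Without the 3 ganglia poorest in neuronal RNA, both falling calls on the pan-neuronal mean were lost. The slope of Napepld was -0.93 (SE 0.57, edgeR adjusted p = 0.463), and that of Mgll moved to -2.01 (SE 0.50, adjusted p = 0.119). In that smaller fit 0 of the 8 genes passed, and only 93 of 15395 genes did.

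**Figure D3:**
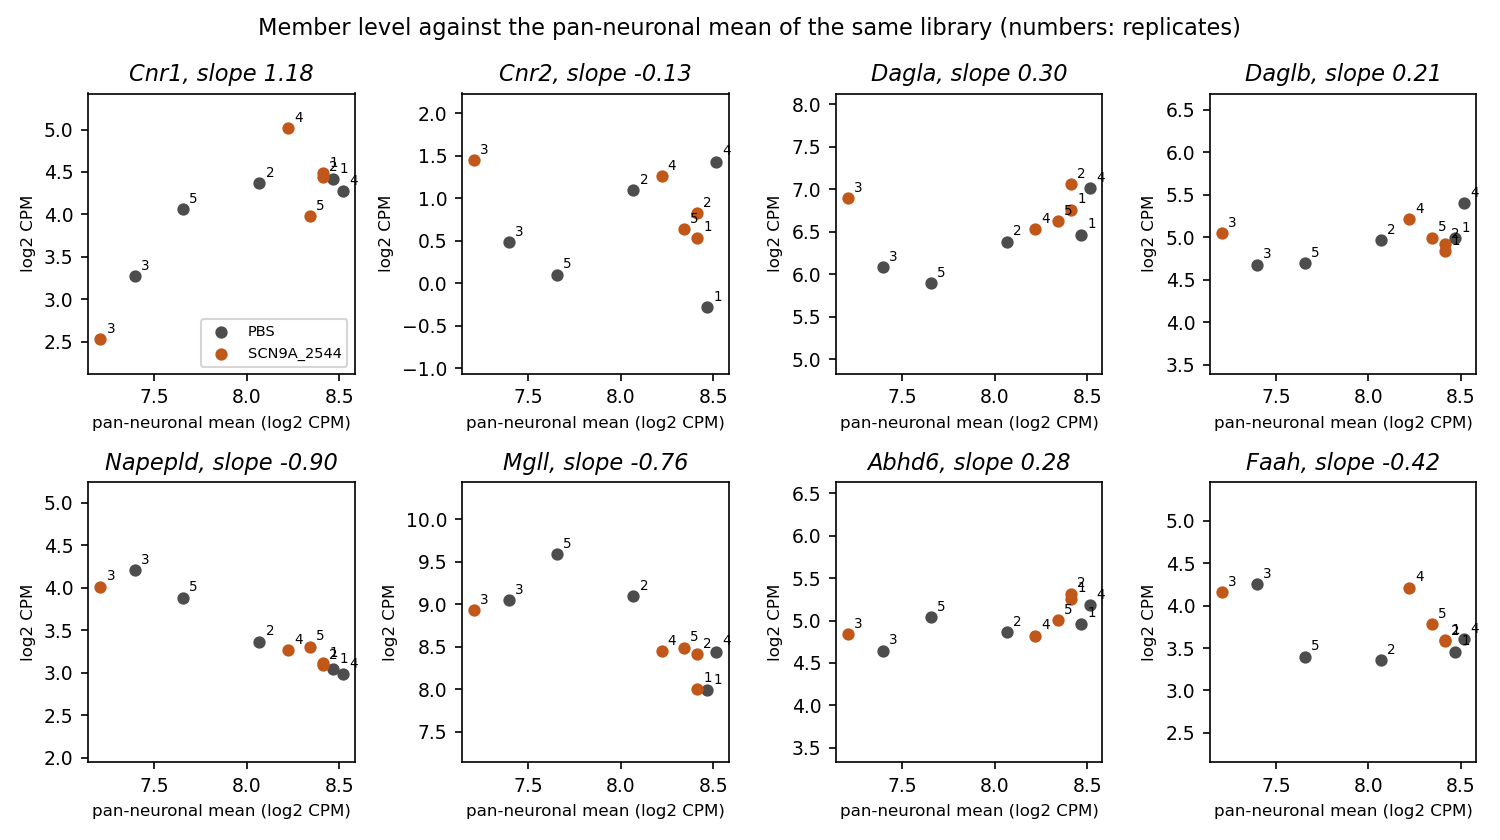
Log2 CPM of each gene against the pan-neuronal mean of the same library, with PBS in grey, SCN9A_2544 in orange and replicate numbers beside the points; each panel spans the same number of log2 units. Napepld falls steadily to the right, Mgll falls with more scatter, and the Cnr1 trend comes from the leftmost ganglia.

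Dagla, Abhd6 and Daglb had slopes of 0.30, 0.28 and 0.21, and Faah and Cnr2 slopes of -0.42 and -0.13, with adjusted p-values of 0.211, 0.0998, 0.280, 0.0878 and 0.821. The slopes of Dagla and Faah changed with single libraries. Dagla passed without SCN9A_2544 replicate 3 (slope 0.75, adjusted p = 0.0150) and was 0.12 without PBS replicate 4. Faah passed without PBS replicate 5 (-0.50, adjusted p = 0.0416) and was -0.21 without PBS replicate 3.

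The genes most like each member, by Pearson r of log2 CPM over the 10 libraries among all tested genes with a symbol, are a description in which all points share library and composition. For Mgll they were Pipox, an oxidase of peroxisomes (r = 0.99), Drp2, a dystrophin-related protein of myelinating Schwann cells (0.98), and the kinesin gene Kif13b (0.98). For Napepld they were the prostaglandin reductase gene Ptgr2, the transcription factor gene Mitf and the adducin gene Add3, all at 0.99. For Cnr1 they were Ppfia2, a presynaptic scaffold protein (0.95), and the retinoid genes Rdh12 and Rbp4 (both 0.93). Dagla ran with Wdr24, Cdh24 and Mlycd (0.98, 0.97 and 0.97), Abhd6 with Dzip1, Prr22 and Slc4a3 (0.98, 0.97 and 0.96), and Faah with Zscan22, Pdia4 and Rcan1 (0.94 each). The least close were Cnr2, with Fgd2, Bpifb5 and the DNA sensor gene Tlr9 (0.90, 0.88 and 0.88), and Daglb, with Ly6h, Lpcat3 and Haus4 (0.89 each).

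Because Mgll and Napepld fell together as neuronal RNA rose, the 250 bases before their RefSeq start sites (build GRCr8) are shown, 5′ to 3′ on the gene's strand. Capitals mark matches on either strand to 6 motifs chosen after the slopes were seen. The core promoter elements searched were the TATA box, TATAAA, the GC box that Sp1 family factors read, GGGCGG, and the CCAAT box, searched by those 5 letters. The other 3 were the E-box of basic helix-loop-helix factors, CACGTG, the short core that SOX factors read, ACAAAG, and a site of EGR factors, a family that includes the Schwann cell regulator Egr2, GCGGGGGCG.
Mgll (chr4:122749186-122749435, plus strand): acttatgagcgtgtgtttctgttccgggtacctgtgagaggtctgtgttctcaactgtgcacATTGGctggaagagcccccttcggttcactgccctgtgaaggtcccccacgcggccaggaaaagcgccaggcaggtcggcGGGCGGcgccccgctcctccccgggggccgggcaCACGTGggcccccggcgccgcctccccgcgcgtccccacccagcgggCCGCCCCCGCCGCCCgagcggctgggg
Napepld (chr4:14253010-14253259, plus strand): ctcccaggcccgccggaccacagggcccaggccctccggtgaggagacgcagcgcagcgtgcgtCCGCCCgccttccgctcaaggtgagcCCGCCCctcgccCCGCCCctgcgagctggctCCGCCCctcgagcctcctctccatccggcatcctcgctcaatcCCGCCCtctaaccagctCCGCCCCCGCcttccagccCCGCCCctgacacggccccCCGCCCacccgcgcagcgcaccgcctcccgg

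Both windows hold 1 match to the EGR site, 26 bases before the start in Mgll and 68 in Napepld, counted from the match's first base. In each gene this match overlaps a GC box. Such a match occurs in 2.45% of the 33469 windows of this length, but in 15.8% of the 2753 windows with at least 70% G and C, and these 2 windows are at 72.4% and 77.2%. The GC box has 3 matches in Mgll and 8 in Napepld, and 30.5% of all windows hold at least 1 (89.8% of the G- and C-rich ones). Mgll alone of the pair has a CCAAT match (34% of windows, 21.2% of the G- and C-rich ones) and an E-box (5.59% and 9.81%). Neither has a TATA box (12.9% and 1.53%) or the SOX core (16.3% and 5.78%). These are matches of letters, not measured binding. Of the 8 members 6 had an entry in the RefSeq promoter table, and Cnr1 and Dagla had none.

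The wider system was described with 31 further genes for other receptors, synthesis and breakdown routes, oxygenases and carriers. Of these, 30 had a row and 25 were tested, with 11 log2 fold changes above 0 and 14 below and a median of -0.01, against 0.02 over all genes. By edgeR 0 of the 25 passed, 0 had an unadjusted p under 0.05, and DESeq2 called 0. The smallest p-values belonged to Plaat3, Alox15, Plcb1, Plcb4, Inpp5d and Ddhd1. Plaat3, a phospholipase and acyltransferase abundant in fat, averaged 125 ± 62.7 CPM with PBS and 76.8 ± 22.3 CPM with SCN9A_2544 (± SD, n = 5 each, log2 fold change -0.70, SE 0.34). Alox15, a lipoxygenase of leukocytes, stood at 3.29 ± 1.93 and 6.21 ± 3.14 CPM (0.91, SE 0.47). The phospholipase C genes Plcb1 and Plcb4, the leukocyte phosphatase gene Inpp5d and the phospholipase gene Ddhd1 had log2 fold changes of -0.39, -0.25, 0.31 and -0.24. All 6 had an edgeR adjusted p of 0.963.

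With neuronal RNA 12 of the 25 wider genes rose and 2 fell, with 11 not passing, beside the 22.1% and 20.6% of all genes. The median slope of the wider list was 0.52, against -0.01 over all genes. Without the 3 ganglia poorest in neuronal RNA, only 3 of 15395 genes had a rising call and 90 a falling call. At most 3 of the 12 rising calls could therefore be kept there. The wider genes were not looked up singly in that fit, so their slopes below are those of all 10 libraries. The largest rising slopes were those of Pla2g4e, which encodes an N-acyltransferase that makes the precursor of anandamide (1.42, SE 0.30), the fatty acid carrier gene Fabp3 (1.07, SE 0.13), Plaat1 (1.04, SE 0.38) and Fabp7 (0.96, SE 0.17). Fabp7 is known in ganglia as a marker of satellite glia. The 2 that fell were Plaat3 (-1.10, SE 0.21) and Ddhd1 (-0.50, SE 0.10). Along the anandamide route, the precursor-making Pla2g4e rose with neuronal RNA while Napepld fell. Pla2g4e was scarce, however, with 17 to 77 estimated counts per library. Plaat1 had only 8 to 26, and its slope passed narrowly (edgeR adjusted p = 0.0438). The wider list holds 6 genes of routes that bypass Napepld, named here after their values were seen. Of these 4 rose: Abhd4 and Gde1, which act in sequence (slopes 0.56 and 0.58, edgeR adjusted p = 0.00098 and 0.00155), Gdpd1 (0.61, adjusted p = 0.00187) and Inpp5d (0.52, adjusted p = 0.0216). The other 2 did not pass, Ptpn22 at 0.44 (adjusted p = 0.574) and Gdpd3 at -0.36 (adjusted p = 0.481). Trpv1, the capsaicin-gated channel that anandamide also opens, rose with a slope of 0.70 (adjusted p = 0.0189) and averaged 88.7 ± 28.8 CPM with PBS and 110 ± 36.8 CPM with SCN9A_2544 (± SD, n = 5 each, log2 fold change 0.32, edgeR adjusted p = 0.963).

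**Figure D4:**
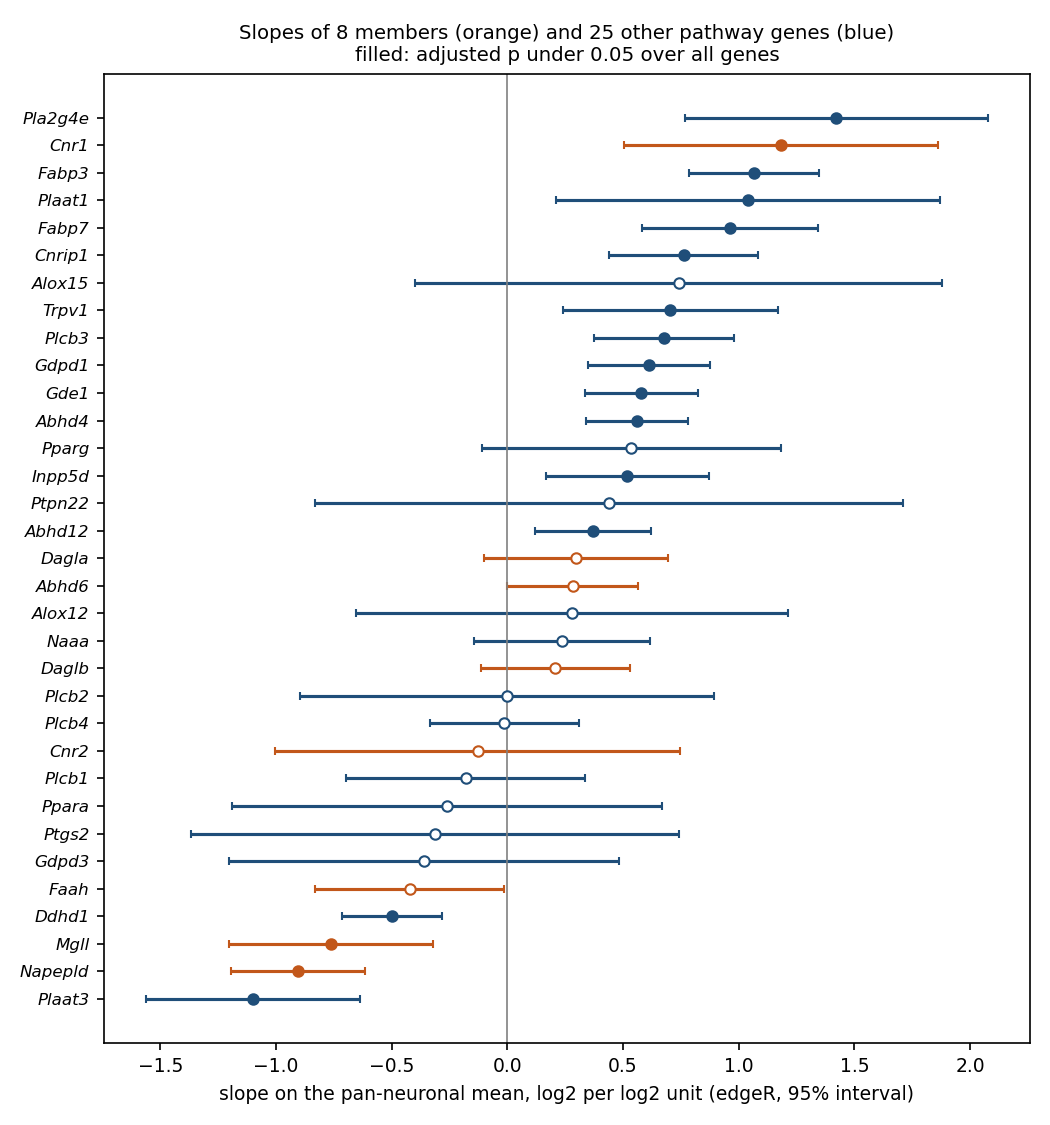
Slope of each gene on the pan-neuronal mean with its 95% interval, for the 8 members (orange) and the 25 other tested genes of the system (blue), with filled points at an edgeR adjusted p under 0.05. Cnr1 is second from the top, and Napepld and Mgll are near the bottom beside Plaat3.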

How the data were processed

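RNA sequencing libraries from 10 ganglia were made by poly(A) selection and sequenced as paired reads of 150 bases, per the labels' protocols. The authors deposited estimated counts per gene, not normalized, in which 11.6% to 12.4% of the values per library are not whole numbers. STAR 2.7.10a, DESeq2 1.44.0 and build mRatBN7.2 are named without a role, per the submitters' processing notes. The counting program, annotation and strand setting were not given in the sources used here.

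As the planned test assumed whole counts, values were rounded. Genes were kept by edgeR's filterByExpr (minimum count 10, minimum total 15), scaled by TMM and tested in edgeR 4.0.16 (R 4.3.3) by its quasi-likelihood F-test, with p-values adjusted by Benjamini-Hochberg over all 15186 genes. SE is the size of the estimate divided by the square root of F. The pan-neuronal mean averages log2 CPM (prior count 2). Levels are not compared between genes, since no transcript lengths were used. Samples are labelled as separate but not as 1 animal each, so the p-values reflect only the spread among these 10, which may be partly technical. No pair of libraries agreed within sampling noise (chi-square per gene 7.70 to 218 over 45 pairs). List means were compared by exact permutation (smallest possible p 0.00794). Alternatives were RLE and upper-quartile scaling, no filter, DESeq2 1.42.0, limma 3.58.1 voom, a replicate block, covariates and left-out libraries. The members and lists were chosen with earlier results of these data known. Named genes are the 8 members, the 6 of the wider list with the smallest p, its largest called slopes (up to 4 in each direction), and the 3 genes closest to each member.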

Additional observations from a re-analysis of the deposited data

Results flagged for a closer look

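Single libraries stood apart for 2 of the 16 gene and group combinations examined, where chance alone flags about 1 in 20. Faah was at 18.9 CPM in PBS replicate 3, while the other PBS libraries lay between 10.1 and 12.0 CPM. Napepld was at 16.0 CPM in SCN9A_2544 replicate 3, while the other treated libraries lay between 8.37 and 9.77 CPM. These 2 libraries had the lowest pan-neuronal means of their groups, 7.40 and 7.21 log2 CPM.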

How the results depend on the processing

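No member and no gene of the wider list passed in any of the 21 alternatives to the treatment comparison. Several uncalled log2 fold changes turned sign. With the pan-neuronal or the Schwann cell and myelin mean as a covariate, Cnr1 was at -0.047 and -0.046, and with limma voom Cnr2 was at -0.017. With the satellite glia mean as a covariate (added after seeing the data), Cnr2 was at -0.24, Mgll at 0.15, Dagla at -0.25, Daglb at -0.16, Napepld at 0.44 and Abhd6 at -0.050. With the macrophage mean, also added, Cnr2 was at -0.27, Faah at -0.062 and Daglb at -0.11. The satellite glia and macrophage means were both higher in the treated group, so these covariates and the treatment cannot be fully told apart. Without the 3 ganglia poorest in neuronal RNA (also added), Cnr2 was at -0.081, Daglb at -0.16 and Napepld at 0.030. Leaving out 1 library at a time gave -0.10 to 0.36 for Cnr1, -0.048 to 0.17 for Daglb and -0.42 to 0.036 for Napepld, and slopes of -0.51 to 0.36 for Cnr2.

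The count of 3 slope calls stayed within 1.5 times under 17 of 19 alternatives, with 3 to 4 calls when 1 library was left out. The count was 0 without those 3 ganglia, where Cnr1 had a slope of -0.63. That fit has fewer samples and a narrower range of the mean. Same-numbered libraries of the groups did not all deviate together (r = 0.38, 0.00, 0.57, -0.01 and 0.05 for numbers 1 to 5, with 2 of 5 PBS libraries closest to their own number), so the numbers were not taken as pairs. A replicate block left 0 members called for treatment and 0 on the slope, with Cnr1 at -0.23 and Faah at 0.074, and it left 0 of all genes called on the slope. In simulated data for the treatment comparison over 15186 genes, the test recovered 4% of genes altered 1.5-fold, 30% at 2-fold and 80% at 3-fold. It made 6 false calls. For the slope, 2%, 16% and 66% were recovered at those folds per log2 unit, with 3 false calls. Genes were simulated independently, with 50 altered at each fold. The real libraries share composition, and 0 genes passed for treatment, so the treatment rates may be too high for these data. The slope simulation took its spread between libraries from a fit without the pan-neuronal mean, while the real slope fit called 42.7% of genes. Its recovery rates may therefore be too low for these data.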

Other observations

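The balance of synthesis to breakdown transcripts was followed as a log2 ratio within each library, where only differences between libraries can be read. The ratio of Dagla to Mgll was -2.46 ± 0.97 with PBS and -1.68 ± 0.36 with SCN9A_2544 (± SD, n = 5 each), with PBS libraries from -3.70 to -1.43 and treated libraries from -2.03 to -1.25. The treated values lay inside or just above the wide PBS range, whose lowest library was PBS replicate 5. The ratio of Napepld to Faah was -0.12 ± 0.43 with PBS and -0.51 ± 0.28 with SCN9A_2544 (± SD, n = 5 each), again with overlapping libraries. No test was made on either ratio.

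Receptors sometimes grouped with the cannabinoid receptors were scarce. Gpr55, which responds to lysophosphatidylinositol, averaged 0.25 ± 0.18 CPM with PBS and 0.20 ± 0.17 CPM with SCN9A_2544, and Gpr18 averaged 0.24 ± 0.19 and 0.58 ± 0.35 CPM (± SD, n = 5 each). Neither had enough counts to be tested, and Gpr119 reached at most 1 count in a library.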
